A study of Mus musculus with 6 samples.

Results

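The 43 genes described here belong to glucose breakdown and to the response to low oxygen: 25 encode glucose and lactate transporters, glycolytic enzymes, their regulators and pyruvate dehydrogenase kinases, and 18 encode oxygen sensors and targets of the hypoxia-inducible factors. They were chosen by name, through the RefSeq transcript of each array probe, and 42 of the 43 were among the 15682 genes tested; 71 probes read them. The study compared a pair of sorted mouse mammary fractions, each on 3 of 6 arrays. The cells of both were taken from virgin C57/B6 animals of the genotype lgr5-egfp-ires-creert2, an allele that places EGFP and an inducible Cre under control of the Lgr5 locus, and both lay in the Lin-CD24+CD29hi gate that is enriched in basal cells. Lgr5-positive cells were GFP+ and Lgr5-negative cells GFP-, so both groups carried the allele and were sorted apart by reporter signal. In other tissues this allele is known to be expressed in a mosaic way, so GFP- cells may include cells that express Lgr5. The labels give no age and do not say how many mice each sample pooled, and nothing says that the replicates came from separate animals; the p-values therefore measure the spread between these samples, which may be technical. Each array set the Cy5-labelled sample against Cy3-labelled RNA pooled from 11 mouse cell lines.

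Glycolysis turns glucose into pyruvate in the cytosol, and lactate dehydrogenase can then reduce pyruvate to lactate, which leaves the cell through monocarboxylate transporters. Pyruvate dehydrogenase kinases hold pyruvate back from oxidation in the mitochondria. When oxygen falls, prolyl hydroxylases stop marking the hypoxia-inducible factors for destruction by the VHL protein, and the factors, which pair with Arnt, switch on genes of glycolysis, vessel growth and matrix processing. In the mammary gland, Hif1a in the epithelium is known to be needed for normal secretory differentiation and lactation.

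Each value below is a log2 ratio of sample over reference, so 0 means equal to the reference, and each difference is the Lgr5-positive mean minus the Lgr5-negative mean. Cy5 signal had a median of 137 to 169 on the Lgr5-positive arrays and 200 to 278 on the Lgr5-negative ones, over a background of 64 to 76. Lgr5 itself was higher in the positive fraction in all 3 pairs (difference 1.47, SE 0.40; adjusted p = 0.245 from the fit without, and 0.0021 from the fit with, the replicate block) and was well above background on all 6 arrays. The mean log2 ratio of the 10 listed basal markers was 3.27 to 3.89 on the 6 arrays. All 42 tested members were well above background on all 6 arrays.

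After loess normalisation the enzymes of glycolysis differed little between the fractions, whereas a small set of regulators and hypoxia genes was lower in Lgr5-positive cells when same-numbered arrays were compared. With the group as the only term in limma, 0 of 42 members passed an adjusted p of 0.05, where 0.612% of all genes did; 3 members, Pfkfb3, Adm and Egln3, had an unadjusted p under that threshold, as did 8.19% of all genes. With the replicate number added as a block, which compares the fractions within each same-numbered pair of arrays, 6 members fell (Pfkfb3, Adm, Hif1a, Pdk4, Ankrd37 and Egln3) and 0 rose. Over all genes 5.61% fell and 2.12% rose in that fit. The fall was at least 2-fold for 3 members, Pfkfb3, Adm and Hif1a, against 4.00% of all genes. Without pair 2 the only call left was Hif1a, and calls over all 15682 genes went from 1212 to 326. Without pair 3 Ankrd37 and Egln3 were lost and Car12 was called lower, and without pair 1 Aldoc and Car9 rose beside the 6 that fell. Median centring in place of loess moved the median of all genes from 0.01 to -0.29 and gave 23 members lower in the blocked fit, where 36.1% of all genes were called lower and 0.816% higher; 39 of 42 members were then below 0, leaving Aldoc, Car9 and Slc16a1 above it.

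**Figure D1:**
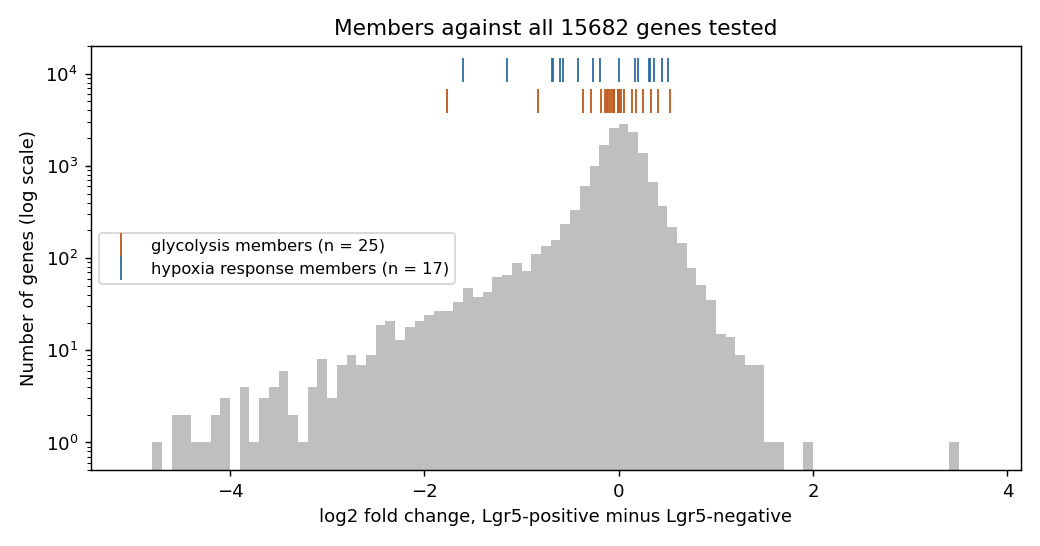
The grey bars count all 15682 tested genes by log2 fold change, Lgr5-positive minus Lgr5-negative, in steps on a log count axis, and the ticks above mark the 25 glycolysis and 17 hypoxia response members. Most glycolysis ticks sit close to 0, and the members farthest to the left are Pfkfb3 (-1.77) and Adm (-1.60).

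As a group, the 25 glycolysis members had a median difference of -0.0085 and the 17 tested hypoxia response members one of -0.19, beside 0.01 over all genes. The hypoxia median depended on single arrays: it was 0.05 without Lgr5-positive replicate 1 and -0.0071 without Lgr5-negative replicate 3. Median centring put the glycolysis median at -0.44 and the hypoxia median at -0.67, where all genes were at -0.29. The 2 fractions did not overlap in 4 members. Adm, Egln3 and Ddit4 were lower throughout (8.14% of all genes were) and Lox was higher (4.06% of all genes). The difference was negative in all 3 pairs for 15 members (21.8% of all genes) and positive in all 3 for 11 members (22.5% of all genes). The range of the 3 pair means exceeded the difference between fractions in 38 of 42 members, or 90.5%, as it did in 83.3% of all genes. A range over 3 means tends to exceed a difference between 2, so these shares do not show that replicates differed more than fractions.

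Among the transporters, none of 4 passed either limma test; Slc2a1 and Slc16a3 were called lower under median centring with the block. Slc2a1, the ubiquitous glucose transporter GLUT1, read, in the order of replicates 1 to 3, -0.74, 0.48 and 0.21 in Lgr5-positive cells and 0.06, 0.67 and 0.32 in Lgr5-negative cells. It was the lower of each pair, but the fractions overlapped: Lgr5-positive replicate 2, at 0.48, lay above Lgr5-negative replicates 1 and 3. The difference was -0.37 (SE 0.35 with the group alone and 0.17 with the block). Neither limma fit called it (adjusted p = 0.9998 with the group alone and 0.271 with the block). Slc16a1, the monocarboxylate transporter MCT1, was at 0.41, the largest difference in size of the 4; it read 1.33, 0.87 and 0.88 in Lgr5-positive and 0.97, 0.52 and 0.37 in Lgr5-negative cells. Every pair had the positive array above the negative one, yet the fractions overlapped and the test was missed (adjusted p = 0.902, and 0.095 with the block). Slc2a3, a high-affinity glucose transporter, was at -0.11, and Slc16a3, which exports lactate, at -0.09.

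With loess normalisation, none of the enzymes that carry glucose carbon through the pathway passed either test. Leaving aside the regulators Pfkfb3 and Pfkfb4, 16 members catalyse the steps from hexokinase to lactate dehydrogenase, and their differences ran from -0.28 (Hk2) to 0.53 (Aldoc) with a median of -0.00033; 8 lay below 0 and 8 above. Under median centring with the block, 8 of the 16 were called lower (Aldoa, Gpi1, Hk1, Hk2, Pfkl, Pgam1, Pgk1 and Tpi1), beside 36.1% of all genes. With loess, in 13 of the 16 the difference was smaller than 0.2 in size, as it was in 60.1% of all genes. With loess and the block, the 95% confidence intervals of all 16 stayed between -0.70 and 0.83, so each excluded a 2-fold change. With loess and the group alone 14 of 16 did, and the widest bounds were -1.03 (Hk2) and 1.11 (Aldoc). Under median centring, where Hk2 was at -0.77, no interval was computed.

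At the entry of the pathway, Hk1 and Hk2, which trap glucose as its phosphate, were at -0.06 and -0.28. Hk2 read -0.94, -0.20 and -0.17 on the positive arrays and -0.47, 0.38 and -0.38 on the negative ones. The phosphofructokinase subunits Pfkl, Pfkm and Pfkp, which make up the committed step, were at -0.0028, 0.13 and -0.05. Gpi1, the isomerase before them, was at -0.14 and its 3 probes ranged from -0.14 to -0.08. Aldoa, the main form in most tissues, was at -0.05. Aldoc, the form known from brain, read 0.59, 0.58 and 0.17 in Lgr5-positive and 0.25, -0.02 and -0.48 in Lgr5-negative cells. It was higher in each pair (difference 0.53, SE 0.13 with the block) without passing the test (adjusted p = 0.053; 0.708 with the group alone), and it passed when array weights were used, when the filter asked for signal on all 6 arrays, or without pair 1. The difference between Aldoa and Aldoc was not tested.

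None of the later steps passed with loess normalisation. Tpi1, which interconverts the triose phosphates, was at -0.12, Pgk1, which makes the first ATP of the pathway's yield, at -0.19, Pgam1 at 0.02, Eno1 at 0.05 and Eno2 at 0.18. Gapdh, the dehydrogenase often taken as a loading control, read -1.80, -1.81 and -1.36 in Lgr5-positive and -1.56, -1.77 and -1.67 in Lgr5-negative cells. The fractions overlapped on its brightest probe (difference 0.0075, 95% interval -0.34 to 0.35 with the block), and its 7 probes ranged from -0.19 to 0.15. Ldha, the muscle-type lactate dehydrogenase subunit, was at 0.0021 on its brightest probe, with a range of -0.32 to 0.09 over 3 probes. Ldhb, the heart-type subunit, had the largest difference among these steps, at 0.34; it read 1.36, 1.59 and 1.37 against 1.08, 1.46 and 0.78, was higher in each pair and did not pass (adjusted p = 0.979, and 0.217 with the block). Several of these genes, Gapdh, Eno1, Ldha and Pgk1 among them, have processed copies in the mouse genome, so the probes may read more than 1 locus. Under median centring, which moved all genes down, 15 of the 16 enzymes were below 0 and Aldoc was at 0.12.

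Of the 2 regulators of phosphofructokinase, Pfkfb3 fell with the block and Pfkfb4 did not pass. Pfkfb3 makes fructose 2,6-bisphosphate, the strongest activator of phosphofructokinase. It read 0.90, 2.43 and 1.89 in the Lgr5-positive fraction and 2.16, 4.04 and 4.33 in the Lgr5-negative one. The positive array was the lower one in every pair, with differences of -1.26, -1.61 and -2.44, although the highest positive value exceeded the lowest negative one. The difference was -1.77, or 3.41-fold lower (SE 0.64 with the group alone, adjusted p = 0.464; SE 0.22 with the block, adjusted p = 0.0060). A second, dim probe gave -0.85 and was well above background on no Lgr5-positive array. Pfkfb4, a second enzyme of this kind, was at 0.25 and did not pass (adjusted p = 0.454 with the block).

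Of the 3 pyruvate dehydrogenase kinases, Pdk4 fell with the block and Pdk1 and Pdk2 were at -0.0085 and -0.00036. Pdk4, which rises in fasting and with fatty acid use, read 2.28, 3.18 and 3.09 in Lgr5-positive and 2.92, 4.45 and 3.68 in Lgr5-negative cells. It was lower in each pair, and the fractions overlapped through replicate 1, which was low in both. The difference was -0.83 (1.78-fold; adjusted p = 0.810 with the group alone, 0.030 with the block), and the scanner's own ratios ended the call (-0.68, adjusted p = 0.097). Pdk1, the kinase that hypoxia is known to induce, had a 95% interval with the block of -0.30 to 0.28, and was called lower under median centring.

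**Figure D2:**
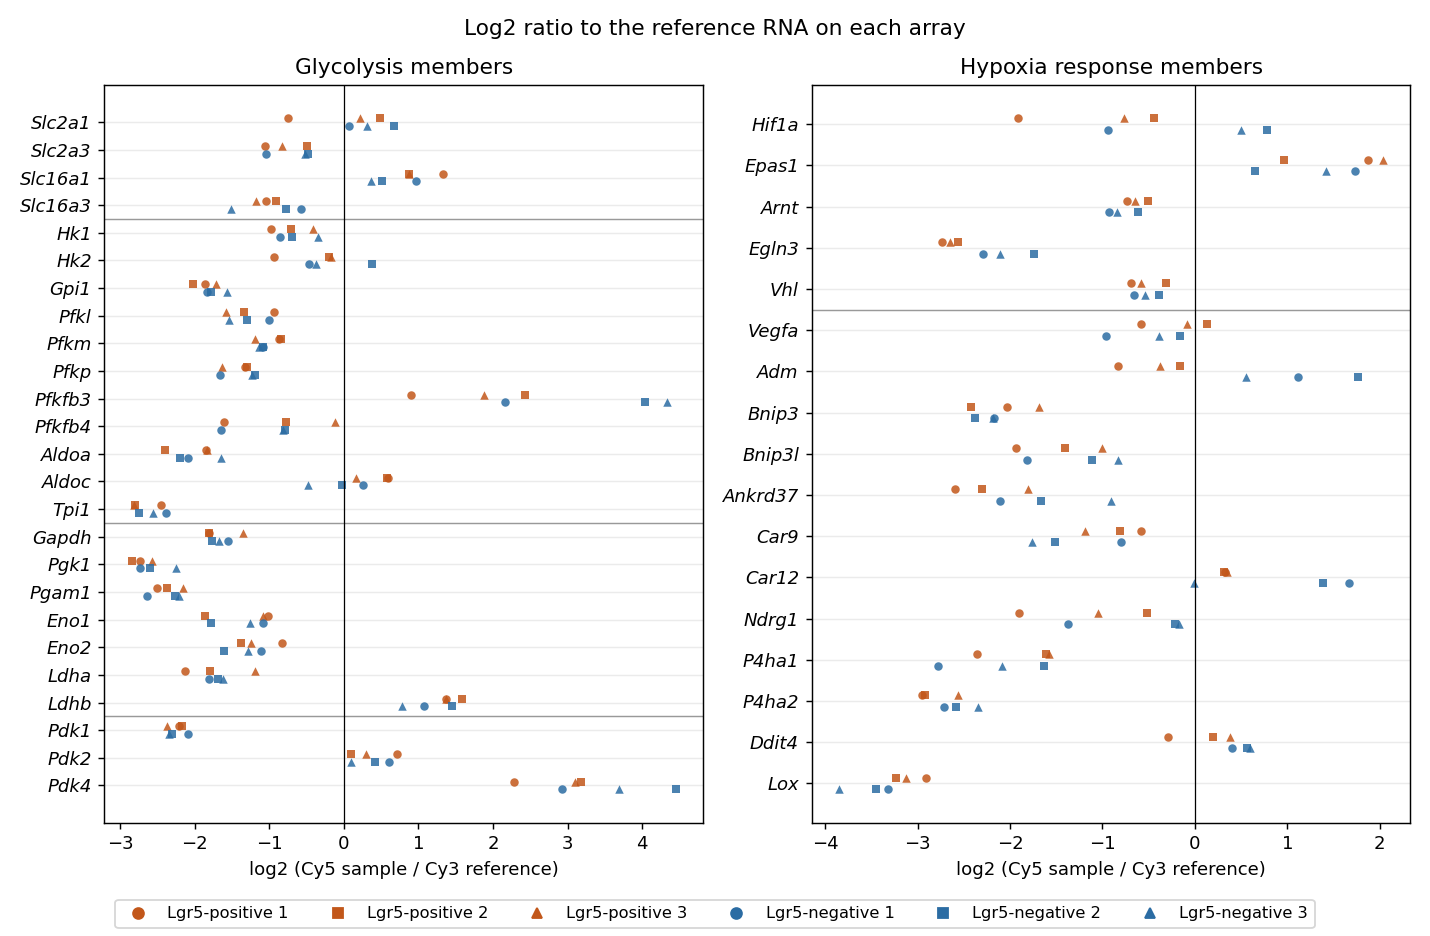
Each symbol is the log2 ratio to the reference RNA on 1 array, by gene, with Lgr5-positive arrays in orange and Lgr5-negative arrays in blue; circles, squares and triangles are replicates 1, 2 and 3, and grey lines part the roles. For Adm and Egln3 the orange and blue symbols do not overlap, whereas for Gapdh, Pgam1, Eno1 and most other enzymes they overlap.

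In the oxygen-sensing machinery, Hif1a and Egln3 fell with the block, and Arnt, Vhl and the brightest Epas1 probe did not pass. Hif1a, the oxygen-regulated subunit of HIF-1, read -1.91, -0.44 and -0.77 on Lgr5-positive arrays and -0.94, 0.78 and 0.50 on Lgr5-negative ones. The positive array was the lower one, with differences of -0.97, -1.23 and -1.27 in the pairs, while replicate 1 was low in both fractions, which made the fractions overlap. The difference was -1.15, or 2.23-fold lower (SE 0.55, adjusted p = 0.728 with the group alone; SE 0.12, adjusted p = 0.0038 with the block). Of the 6, only Hif1a kept its blocked call in all 13 alternatives, with adjusted p from 0.00030 to 0.049. Hif1a is controlled mainly through its protein, which these arrays do not measure.

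Egln3, a prolyl hydroxylase that is itself a hypoxia target, read -2.74, -2.57 and -2.65 in Lgr5-positive and -2.30, -1.74 and -2.11 in Lgr5-negative cells, with no overlap. The difference was -0.60 (SE 0.20, adjusted p = 0.379; SE 0.13 and adjusted p = 0.039 with the block). Its second probe gave -0.41 and did not pass, and the mean of both ended the call (adjusted p = 0.054). Egln1, the main hydroxylase in most cells, did not rise well above background on any array and was not tested. Arnt, the shared partner subunit, had 2 probes that disagreed in sign, 0.17 for the brighter and -0.23 for the other, and Vhl was at -0.00069, called lower under median centring with the block.

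Epas1, which encodes HIF-2 alpha, gave no single answer. Its brightest probe read 1.87, 0.97 and 2.04 in Lgr5-positive and 1.73, 0.65 and 1.42 in Lgr5-negative cells, a difference of 0.36 that did not pass (adjusted p = 0.191 with the block). Another probe gave -0.25 and the dimmest -0.68, which passed when every probe was tested on its own with the block (adjusted p = 0.043; -0.25 gave 0.509 there). The probes disagreed in sign, so no direction is given for Epas1.

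Of the 12 targets of the hypoxia-inducible factors, Adm and Ankrd37 fell with the block and the other 10 did not pass. Adm, which encodes adrenomedullin, a peptide that widens vessels, read -0.84, -0.16 and -0.38 on Lgr5-positive arrays and 1.12, 1.76 and 0.55 on Lgr5-negative ones. The fractions did not overlap: each positive array was below the reference and each negative array above it. The difference was -1.60, or 3.03-fold lower (SE 0.34, adjusted p = 0.134 with the group alone; SE 0.22, adjusted p = 0.0078 with the block), and was -1.95, -1.92 and -0.93 in the pairs. Ankrd37, a small ankyrin repeat protein and known HIF-1 target, read -2.60, -2.31 and -1.80 against -2.10, -1.66 and -0.91. It was lower in each pair with overlapping fractions (difference -0.68; adjusted p = 0.820, and 0.027 with the block).

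Vegfa, Car9 and Lox were higher in Lgr5-positive cells in every pair on their brightest probes, without passing when all pairs were used. Vegfa, the vessel growth factor, read -0.59, 0.14 and -0.09 in Lgr5-positive and -0.96, -0.17 and -0.39 in Lgr5-negative cells. On this probe it was the higher one in each pair, at 0.33, but did not pass (adjusted p = 0.159 with the block). The other Vegfa probe was at 0.60 and was slightly lower in pair 3, where it read 0.77 against 0.82. Car9, a carbonic anhydrase that is among the most specific hypoxia genes, was at 0.50 and likewise higher in each pair (adjusted p = 0.084 with the block); it passed without pair 1. Lox, which crosslinks collagen, read -2.92, -3.24 and -3.13 against -3.33, -3.45 and -3.85; the fractions did not overlap, and the difference of 0.45 did not pass (adjusted p = 0.694, and 0.118 with the block). Under median centring the values of Vegfa and Lox turned to -0.14 and -0.01.

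The remaining targets spread on both sides of 0. Ddit4, an mTOR inhibitor that many stresses induce, read -0.29, 0.19 and 0.38 in Lgr5-positive and 0.40, 0.56 and 0.60 in Lgr5-negative cells. All its positive values lay below all negative ones, at -0.42, without passing (adjusted p = 0.807, and 0.131 with the block). Ndrg1 was at -0.57 (adjusted p = 0.065 with the block). Car12, another carbonic anhydrase, was at -0.69, with 0.32, 0.32 and 0.35 against 1.67, 1.39 and -0.0042: 2 negative arrays were high and the third was not. It passed as lower without pair 3, where the negative array was not high. P4ha1 and P4ha2, subunits of the collagen prolyl hydroxylase, were at 0.31 and -0.26, and the mitophagy receptors Bnip3 and Bnip3l at 0.20 and -0.19. P4ha1, like Vegfa, Car9 and Lox, was higher in Lgr5-positive cells in every pair, by 0.42, 0.01 and 0.51. It did not pass in limma (adjusted p = 0.265 with the block). Bnip3l agreed over its 4 probes, from -0.25 to -0.15, while the 2 kept Bnip3 probes gave 0.20 and -0.10.

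**Figure D3:**
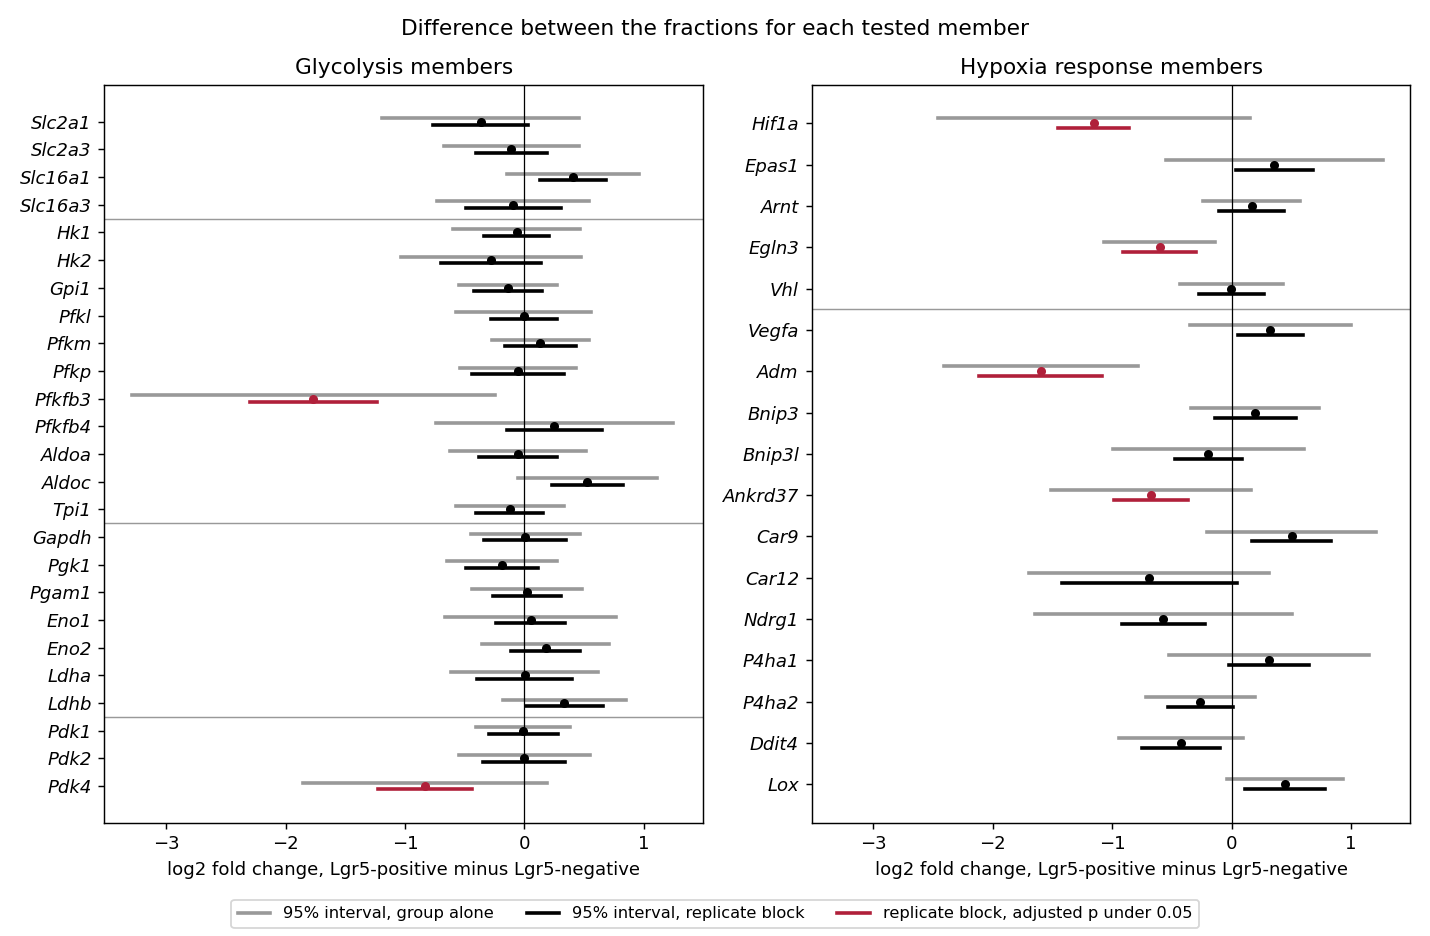
Points are log2 fold changes, Lgr5-positive minus Lgr5-negative, of the 42 tested members, with 95% confidence intervals from the fit with the group alone (grey) and with the replicate block (black, or red where the adjusted p is under 0.05). The 6 red genes all lie left of 0, and most enzyme intervals straddle 0.

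The promoters of the 6 members that fell are shown because they allow the letters bound by hypoxia-inducible factors to be read beside the values, and that of Ldha because it holds the most ACGTG stretches of any member's window beside a difference near 0. RefSeq windows on GRCm38.p6, the 250 bases before each listed start, were found for 38 of the 43 members. Capitals mark ACGTG or GCGTG on either strand (CACGT and CACGC on the reverse), and overlapping matches were joined into 1 stretch; of 2 windows for Pfkfb3 and for Ldha, the one with more stretches is shown.
Adm, chr7:110627407-110627656, + strand: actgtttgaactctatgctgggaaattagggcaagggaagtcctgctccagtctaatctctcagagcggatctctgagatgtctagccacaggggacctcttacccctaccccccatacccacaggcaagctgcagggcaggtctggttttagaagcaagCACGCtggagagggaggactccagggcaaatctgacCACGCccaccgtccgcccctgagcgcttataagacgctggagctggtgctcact
Hif1a, chr12:73907617-73907866, + strand: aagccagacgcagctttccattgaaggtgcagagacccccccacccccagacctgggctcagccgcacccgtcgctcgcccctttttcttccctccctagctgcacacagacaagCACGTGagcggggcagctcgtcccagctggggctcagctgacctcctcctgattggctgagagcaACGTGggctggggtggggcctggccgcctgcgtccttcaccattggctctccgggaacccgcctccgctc
Pfkfb3, chr2:11502091-11502340, - strand: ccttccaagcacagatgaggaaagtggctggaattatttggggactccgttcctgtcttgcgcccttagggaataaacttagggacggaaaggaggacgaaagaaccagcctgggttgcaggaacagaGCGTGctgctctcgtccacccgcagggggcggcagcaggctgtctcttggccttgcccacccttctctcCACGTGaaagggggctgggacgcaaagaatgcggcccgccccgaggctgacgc
Egln3, chr12:54203875-54204124, - strand: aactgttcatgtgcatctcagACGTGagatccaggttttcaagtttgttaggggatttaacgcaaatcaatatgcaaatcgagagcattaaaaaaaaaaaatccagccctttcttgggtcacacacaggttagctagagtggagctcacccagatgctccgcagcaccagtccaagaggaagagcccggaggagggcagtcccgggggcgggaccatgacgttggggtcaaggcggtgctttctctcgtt
Ankrd37, chr8:45999851-46000100, - strand: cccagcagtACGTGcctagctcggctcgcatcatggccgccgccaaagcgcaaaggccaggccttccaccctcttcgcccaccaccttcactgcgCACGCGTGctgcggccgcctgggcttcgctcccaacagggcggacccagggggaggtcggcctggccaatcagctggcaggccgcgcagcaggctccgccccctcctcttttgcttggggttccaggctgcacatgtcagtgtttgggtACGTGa
Pdk4, chr6:5496279-5496528, - strand: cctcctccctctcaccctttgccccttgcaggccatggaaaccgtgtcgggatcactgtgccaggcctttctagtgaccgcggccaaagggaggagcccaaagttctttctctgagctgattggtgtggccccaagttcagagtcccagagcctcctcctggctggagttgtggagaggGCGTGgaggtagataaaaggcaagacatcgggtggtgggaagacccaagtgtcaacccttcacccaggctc
Ldha, chr7:46845554-46845803, + strand: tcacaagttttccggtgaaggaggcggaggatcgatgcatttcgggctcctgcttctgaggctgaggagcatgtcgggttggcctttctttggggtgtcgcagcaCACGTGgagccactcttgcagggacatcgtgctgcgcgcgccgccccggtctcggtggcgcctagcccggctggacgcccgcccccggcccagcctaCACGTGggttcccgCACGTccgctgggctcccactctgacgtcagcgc
All 7 windows of the 6 genes that fell held a stretch of either kind, and 5 of the 7 held ACGTG; the windows of Adm and Pdk4 held only GCGTG. Among all 32851 RefSeq windows, 38.6% held either and 16.6% held ACGTG. Of the 52 windows of all members with one, 78.8% held either and 46.2% held ACGTG. For the 15 windows of the hypoxia response members these shares were 80% and 66.7%. These letters were also frequent among the glycolysis members, most of which did not pass: 78.4% of their 37 windows held either, and Ldha had 3 stretches of ACGTG with a difference of 0.0021. A match is a description of these letters and not of binding.

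Outside the 43, 50 further genes of these pathways were listed, of which 42 were tested. With the group alone 0 passed in limma, where 0.612% of all genes did (2 had an unadjusted p under 0.05, as did 8.19% of all genes). With the block 5 fell and 1 rose, where 5.61% of all genes fell and 2.12% rose. Stc2, a secreted glycoprotein and hypoxia target, had the largest difference, -1.39 (SE 0.21, adjusted p = 0.011 with the block; 0.066 with the group alone). Ndufa4l2, which lowers complex I activity in hypoxia and also marks pericytes, fell by 0.86 on the log2 scale (adjusted p = 0.020 with the block). The others that fell touch glucose use next to glycolysis: Tigar, which degrades fructose 2,6-bisphosphate, at -0.57, G6pdx, the entry enzyme of the pentose phosphate pathway, at -0.53, and Pgm2 at -0.59, with adjusted p of 0.031, 0.044 and 0.045 in limma with the block. Ero1a, an oxidase of the endoplasmic reticulum that hypoxia induces, rose by 0.52, at an adjusted p just under the threshold. The median over the 42 was 0.04.

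Markers of some other cell types also had negative differences. Of 12 endothelial markers 11 had negative differences (median -2.09). With the group alone 3 fell, where 0.612% of all genes were called, and with the block 9 fell, where 5.61% of all genes fell. Their summed Cy5 signal was 11301 to 26021 on the Lgr5-positive arrays and 75878 to 179202 on the Lgr5-negative ones, and Tie1 was well above background on no Lgr5-positive array. Per pair, their mean difference was -1.76, -1.19 and -2.48. Of the 6 members that fell, Pfkfb3, Hif1a and Ankrd37 were also farthest below in pair 3, at -2.44, -1.27 and -0.89. Pdk4 and Egln3 were farthest below in pair 2, at -1.27 and -0.82, and Adm in pair 1, at -1.95. None of the 6 was least below in pair 2, where the endothelial mean was. The 7 tested fibroblast markers and the 6 pericyte markers also had only negative differences, with medians of -0.53 and -0.50. The summed signal of the 8 listed fibroblast markers was 23288 to 25716 on Lgr5-positive and 33250 to 43381 on Lgr5-negative arrays. That of the 7 listed pericyte markers overlapped between the fractions, at 17569 to 49274 against 22309 to 45756. The 3 tested adipocyte markers had a median of 0.02, with 1 of 3 below 0: Fabp4, at -0.86, did not pass (adjusted p = 0.091 with the block). The summed signal of the 4 listed adipocyte markers was 22725 to 60812 against 70606 to 138873. A sum can be carried by 1 bright gene: the log2 ratio of Fabp4 was 6.68 to 8.15 on the 6 arrays, while Plin1 and Lep differed by only 0.02 and 0.03. Plin1 was well above background on 1 Lgr5-positive and 2 Lgr5-negative arrays, and Adipoq on no Lgr5-negative array. Dpt and Kcnj8 were well above background on no Lgr5-positive array, but they were not among the genes tested, so no difference is given for them. Luminal markers had a median of -0.63 over 10 genes, leukocyte markers 0.06 over 8 and basal markers 0.42 over 10. With the block, 4 luminal, 4 fibroblast, 2 pericyte and 1 leukocyte markers fell, and 4 basal markers rose. Of all genes, 5.61% fell and 2.12% rose in that fit. The part of these cells in the difference of any member was not tested, and in bulk RNA fewer cells of a type and less RNA per cell cannot be told apart.

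**Figure D4:**
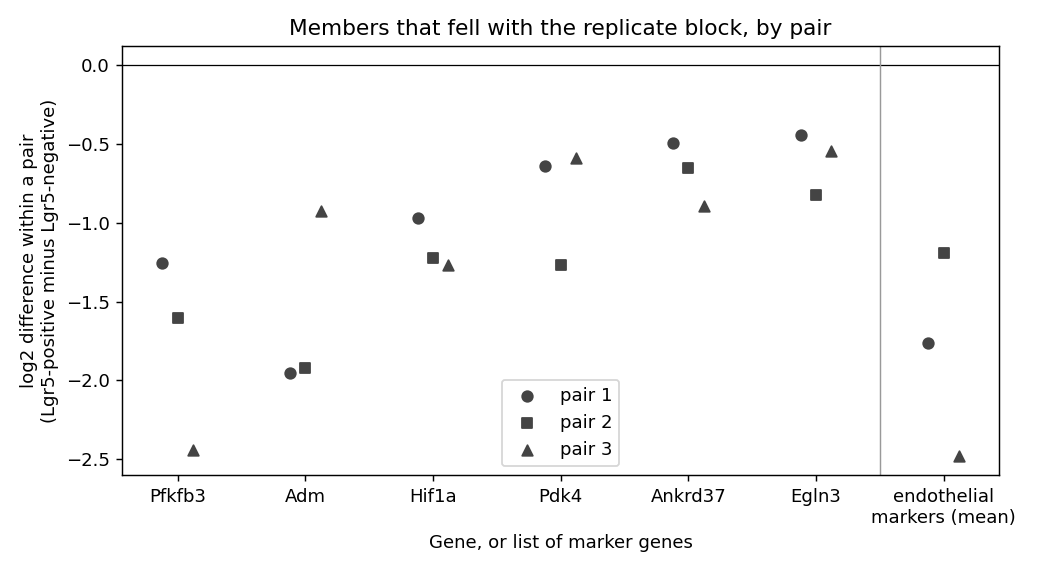
Each symbol is the log2 difference between the Lgr5-positive and the Lgr5-negative array of 1 pair, for the 6 members that fell with the replicate block and, right of the grey line, for the mean of the 12 endothelial markers. All values lie below 0; those of Hif1a span -1.27 to -0.97 and those of Adm -1.95 to -0.93.

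Against the reference RNA, most members were low in both fractions. The ratio was below 0 on all 6 arrays for 28 of 42 members, including 13 of the 16 enzymes, where 33.1% of all genes were so, and above 0 on all 6 for 6 members (26.9% of all genes): Pfkfb3, Pdk4, Pdk2, Ldhb, Slc16a1 and Epas1. The count of 28 was the same with the scanner's ratios and under median centring, while the 6 became 3 (Pdk4, Slc16a1 and Epas1) under median centring. The shares of all genes moved with median centring to 45.8% below and 16.5% above. Isoforms of an enzyme differed in this respect. Ldha had means of -1.70 ± 0.48 and -1.71 ± 0.10 (SD, n = 3) in Lgr5-positive and Lgr5-negative cells, whereas Ldhb read from 0.78 to 1.59 on the 6 arrays. Pdk1 was at -2.25 ± 0.11 and -2.24 ± 0.14 (SD, n = 3) and Pdk4 at 2.85 ± 0.50 and 3.69 ± 0.77 (SD, n = 3). These ratios are each relative to that gene in the cell lines of the reference and do not say which isoform is more abundant.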

How the data were processed

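Total RNA from 6 sorted samples was labelled with Cy5 and hybridised with Cy3-labelled reference RNA, with no dye swap, to 2-colour Agilent arrays. The scanner files hold median spot and background intensity and a log10 ratio, which the authors extracted with Agilent software, Feature Extraction 11.0.1.1 per the file headers and 11.0 in the submitters' processing notes. The deposited value table holds log2 ratios centred per probe; its column medians ran from -0.05 to 0.03, and how it was centred is not given in the sources used here. All 6 arrays were on 1 slide and in 1 scan.

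From the intensities, background was corrected with normexp (offset 50), arrays were loess normalised, control and outlier spots were left out, and spots were averaged per probe. Probes with Cy5 well above background on at least 3 of 6 arrays were kept, and the brightest stood for its gene. Values are log2 ratios tested with limma 3.58.1 in R 4.3.3, Benjamini-Hochberg adjusted over 15682 genes, threshold 0.05; the script was tested on simulated data. One fit had the group alone and another added the replicate number as a block. Same-numbered arrays deviated together (correlations 0.81, 0.82 and 0.68, and -0.67 to -0.16 between numbers), so the numbers were taken to pair the arrays. Deviations were from the mean of each fraction's 3 arrays and cancel out over them, so the negative correlations follow in part from the positive ones. The labels do not say that the arrays are paired. Same-numbered arrays also lie next to each other on the slide. Alternatives were the background, normalisation, filter, probe rule, array weights, the Cy5 channel alone and leaving out arrays or pairs. Members matched by RefSeq accession. The number of arrays limits the precision. Any member could be named with its difference; values on each array were set to be given for members that passed either fit or changed at least 2-fold and for the largest difference in each role. Those of Slc2a1, Hk2, Aldoc, Gapdh, Epas1, Vegfa, Car12, Lox and Ddit4 were added after their values were seen. Of other pathway genes, up to 6 that passed were named. Members and lists were chosen with earlier results of these data known.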

Additional observations from a re-analysis of the deposited data

How the results depend on the processing

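With the group alone, 0 of 42 members passed under every alternative run; with the replicate block in the same fit 6 did. In the blocked fit, median centring gave 23, and the other settings that kept all arrays gave 5 to 7. Leaving out 1 replicate pair gave 1 to 8 members: 1 without pair 2 (Hif1a), 5 without pair 3 (Car12 among them) and 8 without pair 1, of which 6 fell and 2, Aldoc and Car9, rose. The calls over all 15682 genes moved too: 326 without pair 2, 854 without pair 3 and 1398 without pair 1. With all pairs 1212 genes were called, and 5790 under median centring. Hif1a kept its blocked call in all 13 alternatives, Adm and Pfkfb3 in 12, Ankrd37 in 11, and Egln3 and Pdk4 in 10 each; no call changed sign. The median of the glycolysis members was -0.44 and that of the hypoxia response members -0.67 under median centring, which also moved all genes to -0.29. Leaving out 1 array gave -0.070 to 0.023 for glycolysis and -0.38 to 0.047 for hypoxia response: 0.047 without Lgr5-positive replicate 1, -0.38 without Lgr5-positive replicate 3, -0.34 without Lgr5-negative replicate 1 and -0.0071 without Lgr5-negative replicate 3. The cause of these shifts was not tested. One test per kept probe, added after seeing the data, called the brightest probe of 6 members and any probe of 7, with the dimmest Epas1 probe added. The slide as a block was not run, since there is 1 slide. With 3 arrays a group and loess normalisation, the 95% interval with the group alone excluded a 2-fold change for 14 of the 16 core enzymes. No interval was computed under median centring.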
